A study of Mus musculus with 54 samples.

Results

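The regions described here are the 25 merged ATAC-seq peaks around Sox2 on mouse chromosome 3, out of 113737 peaks in the whole list. They were chosen by position, within bounds set with earlier results of these data known. Each has its centre between bases 34550000 and 34850000 of the build GRCm38, a window that begins 100.405 kb upstream of the annotated transcription start site (TSS) of Sox2 and ends 199.595 kb downstream of it. Together they made up 0.0220% of the list. In ATAC-seq a transposase, Tn5, inserts sequencing adapters wherever DNA is accessible, and a peak is a stretch where the resulting fragments pile up. Sox2 (ENSMUSG00000074637.7, chr3:34650405-34652461, plus strand) is a gene of 1 exon.

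Sox2 encodes an HMG-box transcription factor that keeps embryonic stem (ES) cells pluripotent together with OCT4, with which it binds composite DNA sites made of a SOX and an OCT element. Besides the promoter, an enhancer called SRR2 is known in the flank downstream of the gene. In ES cells most Sox2 transcription is known to depend on a distal cluster of enhancers, the Sox2 control region, which lies about 100 kb downstream of the gene and contacts the promoter through a chromatin loop. The noncoding gene Sox2ot overlaps Sox2 on the same strand and ends before the control region.

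The study asked how OCT4 and SOX2 regulate chromatin accessibility in ES cells, and how OCT4 does so across the cell cycle. It also depleted SOX2 in another ES cell line, which is not part of the peak list. The 54 samples behind the list came from 1 mouse ES cell line, ZHBTc4, whose own Pou5f1 (the gene of OCT4) is shut off by doxycycline (dox). Dox was given to every sample, controls included. The cells were a sorted, drug-selected population transduced with Tir1, mCherry-OCT4-AID (an OCT4 that is degraded when indole-3-acetic acid, IAA, is added, expressed at a low level from the PGK promoter) and YPet-MD (a cell cycle reporter, also under PGK). The samples formed 24 groups: 8 groups in the cell cycle set (22 samples; EG1, LG1, S or SG2 phase with 26 hr of dox, with or without 500 nM IAA for 2 hr), 8 in the washout set (16 samples; the same phases with 31 hr of dox, IAA or none for 2.5 hr and 4.5 hr of washout) and 8 in the time course (16 samples; unsorted cells with 34 hr of dox and either no IAA or IAA for 30 min or 1, 2, 3, 4, 6 or 10 hr). The peak list merges all of these, so a peak belongs to no group, has no replicate error, and cannot show which peaks opened or closed when OCT4 was lost. The sequencing depth is unknown from these values, and no comparison of treatments or cell cycle phases was possible.

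Sequences are shown first for the stretches on which the description turns, each taken from GRCm38.p6 (the promoter from the RefSeq promoter table of the same build), on the plus strand and in lower case. Capitals mark matches to the consensus sequences searched in all peaks, on either strand. The first is the promoter, chr3:34649745-34649994, the 250 bases before the RefSeq start site. That site lies 410 bp upstream of the GENCODE TSS, from which distances are measured here unless stated otherwise. Both KLF matches (bases 77 to 85 and 137 to 145) and the CTCF match (bases 103 to 114) lie on the minus strand, and the stretch is 72.0% G or C with 27 CpG dinucleotides.
Sox2 promoter: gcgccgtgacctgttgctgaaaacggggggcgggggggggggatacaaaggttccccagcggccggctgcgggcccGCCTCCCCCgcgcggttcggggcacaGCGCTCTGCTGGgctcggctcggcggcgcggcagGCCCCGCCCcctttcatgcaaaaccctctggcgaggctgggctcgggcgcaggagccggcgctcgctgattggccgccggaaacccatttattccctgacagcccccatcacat

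The next 2 stretches come from the downstream side of the gene. The first, chr3:34653775-34654073, holds the whole +3.5 kb peak and the flank beyond it, with the OCT4::SOX2 match outside the peak in capitals. The second, chr3:34668279-34668346, shows the OCT match in the +18.1 kb peak. Peaks are named here by the distance of their centre from the TSS.
+3.5 kb peak and flank: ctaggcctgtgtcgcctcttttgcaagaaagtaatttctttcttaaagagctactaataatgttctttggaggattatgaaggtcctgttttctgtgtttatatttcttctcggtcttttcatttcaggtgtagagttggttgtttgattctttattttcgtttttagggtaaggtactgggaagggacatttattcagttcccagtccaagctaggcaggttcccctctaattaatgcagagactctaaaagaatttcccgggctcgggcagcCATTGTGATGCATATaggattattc
+18.1 kb peak: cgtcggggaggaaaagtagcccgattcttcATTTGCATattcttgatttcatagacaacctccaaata

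The last 4 stretches belong to the distal side. They are chr3:34745208-34745286 with the KLF and STAT3 matches of the +94.9 kb peak, chr3:34756576-34756710 with the ESRRB match just before the +106.6 kb peak, chr3:34757940-34758102 with the ESRRB match (from base 21) and the SOX match (from base 137) of the +107.5 kb peak, and chr3:34760023-34760236, the whole +109.7 kb peak with its CTCF match.
+94.9 kb peak: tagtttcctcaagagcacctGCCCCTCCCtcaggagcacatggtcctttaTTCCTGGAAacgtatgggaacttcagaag
+106.6 kb peak and flank: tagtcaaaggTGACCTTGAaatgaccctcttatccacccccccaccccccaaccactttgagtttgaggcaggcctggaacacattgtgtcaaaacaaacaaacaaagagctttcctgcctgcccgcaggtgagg
+107.5 kb peak: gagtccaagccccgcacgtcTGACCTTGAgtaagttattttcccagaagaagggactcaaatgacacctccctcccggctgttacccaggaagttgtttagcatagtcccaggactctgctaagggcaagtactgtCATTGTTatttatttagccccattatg
+109.7 kb peak: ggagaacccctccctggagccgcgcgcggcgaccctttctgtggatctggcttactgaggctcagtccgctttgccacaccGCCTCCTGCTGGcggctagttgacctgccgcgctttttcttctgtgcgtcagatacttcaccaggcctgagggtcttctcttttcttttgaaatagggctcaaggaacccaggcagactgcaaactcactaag

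Accessible regions around Sox2 lay mostly downstream of the gene. Of the 25 peaks, 4 had their centre upstream of the TSS and 21 downstream. The window is longer on the downstream side, and per length this came to 0.398 peaks per 10 kb upstream and 1.05 per 10 kb downstream. The peaks covered 14968 bp, or 4.99% of the window, against 2.31% of chromosome 3 as a whole. Their density was 0.833 peaks per 10 kb, against 0.412 per 10 kb over chromosome 3. Beyond the window the surroundings were sparse. The nearest peak on the upstream side was 184.622 kb from the first peak of the window, and the nearest on the downstream side was 63.289 kb from the last.

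Sox2 was the only protein-coding gene with a TSS in the window. The neighbouring protein-coding start sites were those of Dnajc19, 569.084 kb upstream, and Atp11b, 1103.701 kb downstream. At the peak centre 9 of the 25 peaks lay within Sox2ot, 2 within the lincRNA gene Gm3143, 1 within the lincRNA gene Gm38509 and 13 in no annotated gene. By annotation class the 25 peaks fell into 4 at promoters (within 1 kb of any annotated TSS), 2 in exons, 6 in introns and 13 in intergenic sequence. The promoter class is generous here, since with protein-coding start sites alone only 1 peak, that of Sox2, would be in it. The other 3 were placed there by Gm42692 and Gm42693, both predicted transcripts of the TEC type, and by the short RNA gene Gm27611. The remaining annotated genes overlapping the window (Gm27403, Gm42695, Gm42205, RF01953, Mir1897, Gm43206 and Gm21388) had neither a peak centre in their body nor a peak centre within 1 kb of their TSS.

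**Figure D1:**
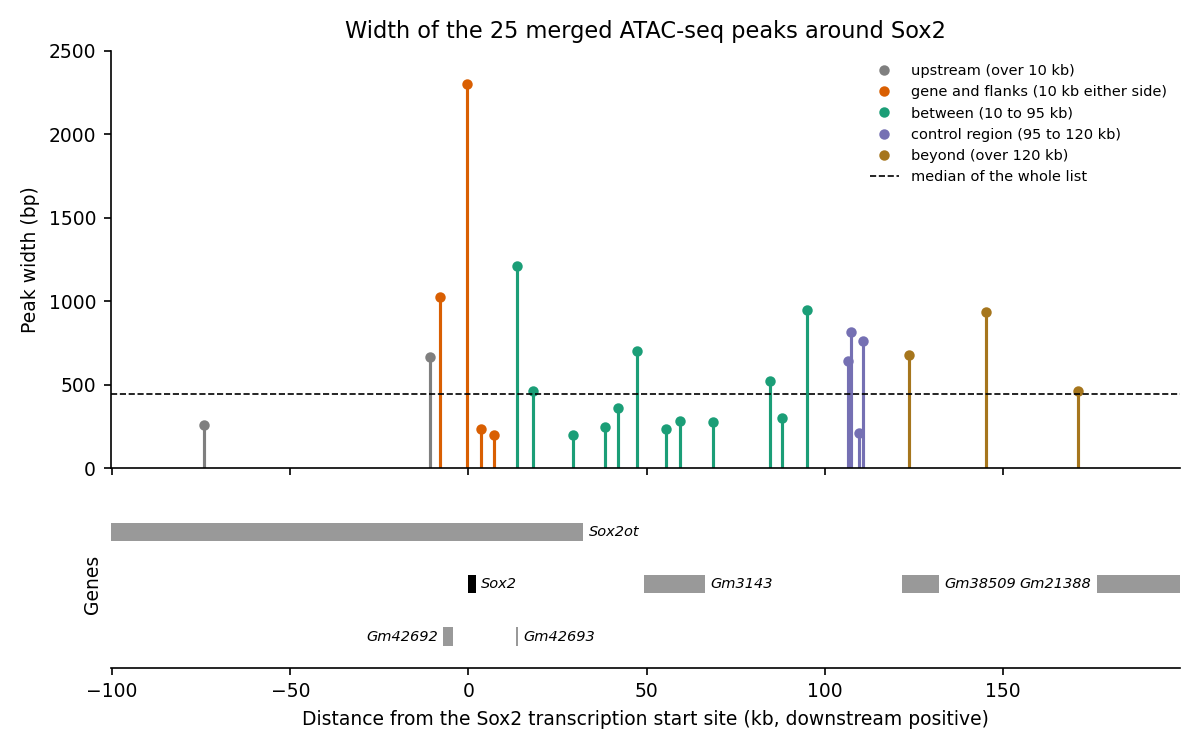
Width of each peak (bp, upper panel) against the distance of its centre from the Sox2 TSS (kb), with points coloured by zone and a dashed line at the median width of all 113737 peaks (447 bp), above the annotated genes (lower panel, protein-coding in black). The TSS peak stands far above the rest at 2301 bp, and the 4 peaks of the control region sit close together.

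The peak over the Sox2 TSS was the widest of the window. It spanned chr3:34648953-34651253, a width of 2301 bp, with its centre at -302 bp from the TSS. It was wider than 99.6% of all peaks and wider than 98.6% of all proximal peaks, those centred within 1 kb of an annotated TSS. From the GENCODE TSS it reached 1452 bp upstream and covered 849 bp of the gene, which is 41.3% of the exon and 87.6% of the coding sequence. The RefSeq start site lies 410 bp further upstream, within the same peak. Measured from there, the upstream reach is shorter and more bases of the gene are covered. The GC content of the peak was 63.2%, the highest of the 25 peaks. The ratio of observed to expected CpG dinucleotides, which is near 1 where CpGs have not been lost, was 0.779. This peak held 5 KLF matches, 1 SOX match and 1 CTCF match. The KLF match nearest the start lay at -7.0 bp from the GENCODE TSS, which is downstream of the RefSeq one.

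The other 3 peaks within 10 kb of the TSS were unlike it. The -7.9 kb peak, chr3:34641950-34642974, was 1025 bp wide with 59.0% GC and a CpG ratio of 0.639, and lay 802 bp from the start of Gm42692. The +3.5 kb peak, chr3:34653775-34654008, in the downstream flank where SRR2 is known, was 234 bp wide with 38.5% GC, among the lowest in the window. The +7.0 kb peak, chr3:34657328-34657529, was the narrowest of all 25 at 202 bp. The 4 peaks around the gene thus ranged from 202 to 2301 bp, and their summed width of 3762 bp was 25.1% of the peak width in the window, most of it in the TSS peak.

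The flank of the +3.5 kb peak held an OCT4::SOX2 composite match. The composite was searched as the SOX element CATTGTT directly followed by the OCT element ATGCAAAT, with up to 3 mismatches over 15 bases. The match at chr3:34654049-34654063 differed at 2 bases. Only 1 other match in the window was as close, and it lay 26917 bp from the nearest peak. The match near the +3.5 kb peak lay 41 bp past the downstream edge of the peak, 164.5 bp from its centre. With the 3 mismatches of the search, 2 of the 25 peaks had a match within 100 bp of an edge but none inside, the +3.5 and +29.3 kb peaks, beside 0.832% of the list (946 of 113737 peaks). The 100 bp were chosen after the match had been seen, so this count is a description of where it lies. A STAT3 match lay further out, 168 bp past the same edge. The edges of a merged peak depend on depth and on the peak caller, and the list gives no summit by which the match could be placed against the signal.

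**Figure D2:**
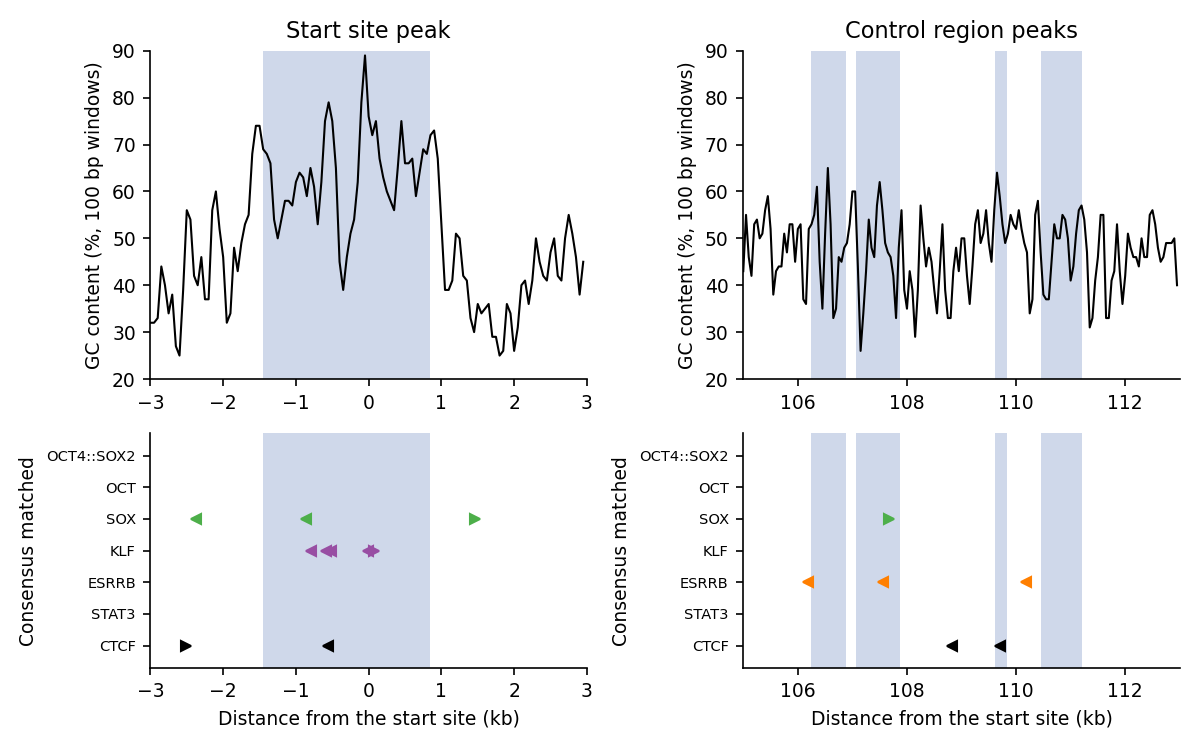
GC content (%, windows of 100 bp, upper panels) and consensus matches (lower panels, triangles pointing right for the plus strand and left for the minus strand) against the distance from the Sox2 TSS (kb), around the TSS peak (left) and the control region (right), with peaks shaded. The TSS peak holds 5 KLF matches. The shaded peaks of the control region hold 1 SOX, 1 ESRRB and 1 CTCF match and no KLF match, counts too small to set them apart from the list.

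The control region was looked for 95 to 120 kb downstream of the TSS, and this stretch held 4 peaks. The +106.6 kb peak, chr3:34756650-34757291, was 642 bp wide. The +107.5 kb peak, chr3:34757470-34758283, was the widest of the 4 at 814 bp. The +109.7 kb peak, chr3:34760023-34760236, was the narrowest at 214 bp, and the +110.8 kb peak, chr3:34760857-34761618, was 762 bp wide. All 4 were intergenic, and the nearest annotated TSS to each was that of Gm38509, 10837.5 to 15104.5 bp away.

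These 4 peaks were packed more closely than any other neighbours in the window. The gaps between them were 178, 1739 and 620 bp, which were the 3 smallest of the 24 gaps around Sox2. Over the whole list 3.31% of gaps were 178 bp or shorter. Gaps under 1 kb numbered 2 of 24 around Sox2, beside 10.9% of the list, so they were not more frequent here than elsewhere. The 4 peaks spanned 4969 bp, from 106.245 to 111.213 kb downstream, and covered 48.9% of that span. On either side the sequence was free of peaks for 10848 bp toward the gene and for 12114 bp away from it. When peaks with gaps of up to 5 kb were linked into runs, this was the only run of 4 peaks in the window, and 12.4% of all peaks in the list lay in runs of 4 or more. With gaps of up to 10 kb the picture changed. The control region run still had 4 peaks, and 40.7% of all peaks lay in runs that large, while the window held 2 longer runs of 7 peaks each, from -11.075 to 18.304 kb and from 29.217 to 68.864 kb. The control region accounted for 16.2% of the peak width in the window (2432 of 14968 bp), against 25.1% for the peaks around the gene. That order depends on the bounds, since with 90 to 130 kb the share was 27.1%.

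**Figure D3:**
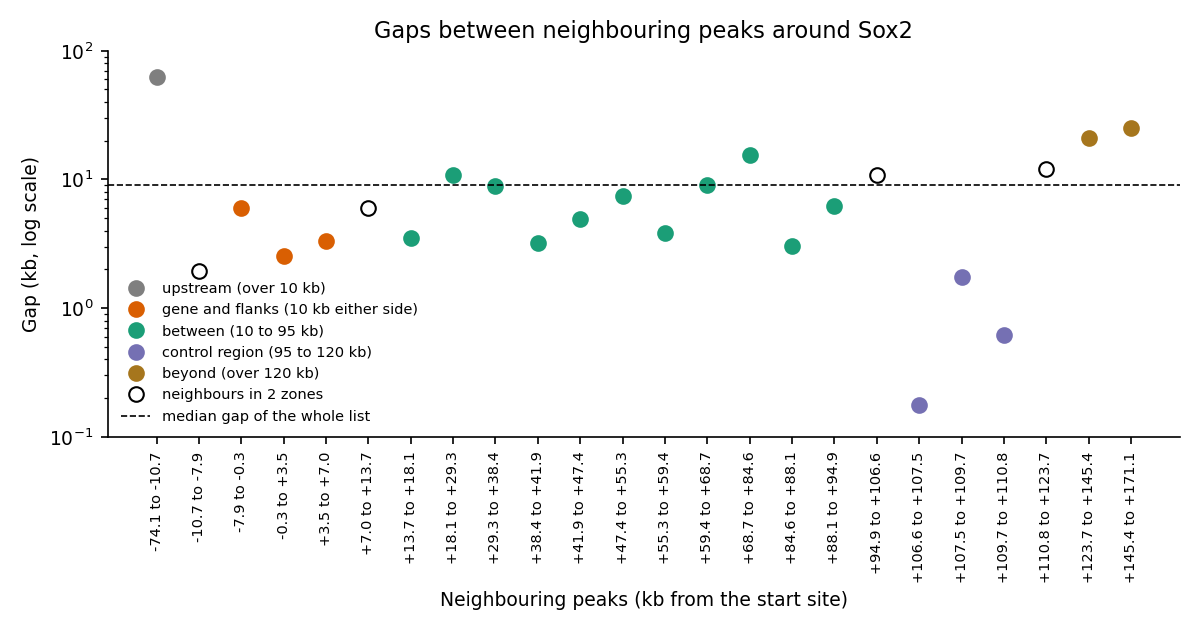
Gap between each pair of neighbouring peaks (kb, log scale), in order along the chromosome, with filled points coloured by the zone that holds both neighbours, open points where they lie in 2 zones, and a dashed line at the median gap of the whole list (9117 bp). The 3 points of the control region are the lowest, at 178, 1739 and 620 bp, and the gap upstream of -10.7 kb is the highest at 62881 bp.

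The largest share of the peaks, 12 of 25 with 38.5% of the peak width, lay between the gene's flank and the control region, 10 to 95 kb downstream. They were spaced by gaps of 3019 to 15503 bp, so none was under 3 kb. The widest was the +13.7 kb peak, chr3:34663541-34664750, which was 1210 bp wide, covered the start of Gm42693 within Sox2ot, and had a CpG ratio of 0.781, the highest of the window. Next was the +94.9 kb peak, chr3:34744856-34745801. At 946 bp it was the widest distal peak around Sox2, wider than 91.2% of all distal peaks, and its centre fell 76.5 bp short of the 95 kb limit. Measured from the RefSeq start site, which lies 410 bp upstream of the GENCODE one, it entered the control region and raised the count there from 4 to 5 peaks.

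Several of the peaks between were narrow. The +29.3 kb peak, in an exon of Sox2ot, was 203 bp wide. The +38.4, +55.3, +59.4 and +68.7 kb peaks were 248, 238, 287 and 281 bp wide. The +55.3 and +59.4 kb peaks lay in an intron and an exon of Gm3143. The +41.9, +88.1 and +84.6 kb peaks were 364, 300 and 522 bp wide, the +18.1 kb peak was 462 bp, and the +47.4 kb peak reached 703 bp. In this zone only the +13.7 and +94.9 kb peaks were wider than 703 bp.

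Away from the gene on the upstream side there were 2 peaks. The -10.7 kb peak, chr3:34639330-34639996, was 667 bp wide, and the -74.1 kb peak, chr3:34576189-34576448, was 260 bp wide. Both lay in introns of Sox2ot, and the 62881 bp between them were the longest stretch without a peak in the window. Past the control region the +123.7, +145.4 and +171.1 kb peaks were 679, 938 and 466 bp wide. They were separated by 20890 and 25073 bp. The +123.7 kb peak lay in an intron of Gm38509.

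As a group the 25 peaks resembled the list in width and were closer together than it. Their median width was 466 bp (range 202 to 2301 bp), beside 447 bp for all 113737 peaks. The 21 distal peaks had a median of 462 bp, against 380 bp for all distal peaks. Of the 25, 9 were under 300 bp (32.1% of the list) and 5 were at least 900 bp (19.7%). The median gap was 5994.5 bp, against 9117 bp over the list and 10419.5 bp on chromosome 3. Gaps over 10 kb numbered 7 of 24 around Sox2, while 47.1% of all gaps in the list were that long. These are descriptions of 1 locus without an error, and no test was made of them.

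Base composition separated the TSS peak and a few others from the rest. The median GC content of the 25 peaks was 49.8% (range 37.9 to 63.2%), beside 47.7% for all distal and 57.0% for all proximal peaks. The median CpG ratio was 0.374, against 0.210 for all distal and 0.584 for all proximal peaks. Within the control region, 3 of the 4 peaks had a GC content of 46.2 to 48.0% and CpG ratios of 0.164 to 0.347. The fourth, the narrow +109.7 kb peak with the CTCF match, stood apart with 57.5% GC and a CpG ratio of 0.629, above the medians of proximal peaks although it lay 11945.5 bp from the nearest annotated TSS. None of the 25 peaks consisted of repeats for more than 50% of its bases, compared with 12.8% of the list, and 6 contained no repeat at all (17.1% of the list).

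**Figure D4:**
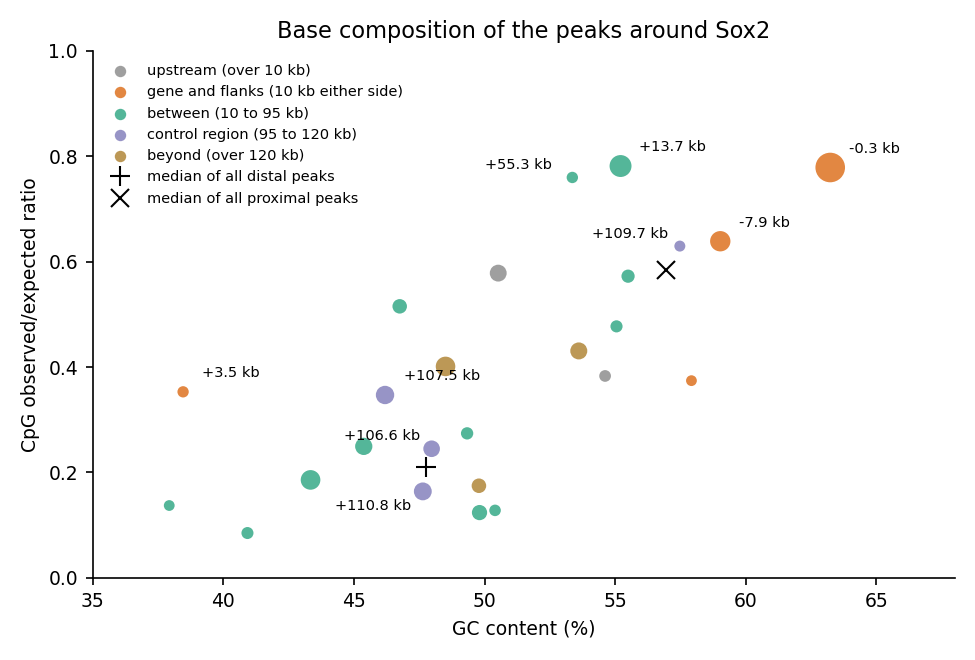
CpG observed/expected ratio against GC content (%) of the 25 peaks, coloured by zone and with the area of each point growing with peak width, beside the medians of all distal peaks (plus sign) and all proximal peaks (cross). The TSS peak lies at the upper right (63.2% GC, ratio 0.779), 3 peaks of the control region lie near the distal median, and the +109.7 kb peak lies near the proximal one.

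Matches to 7 consensus sequences of factors known to act in ES cells, or in chromatin looping in the case of CTCF, were counted on both strands of each whole peak. Apart from OCT4::SOX2, these were OCT (ATGCAAAT), SOX (CATTGTT), KLF (GGGNGNGGC), ESRRB (TCAAGGTCA) and STAT3 (TTCCNGGAA) without a mismatch, and CTCF with up to 1 mismatch over its core. OCT and SOX are the elements of the composite, so a match can count for both. In all there were 18 matches, and 15 of the 25 peaks held none. The share of the whole list without any match was not counted, so the 15 cannot be called many or few. Shares over the list refer to all 113737 peaks searched in the same way. A match is a stretch of letters and not evidence of binding, and its absence says only that those letters are not there.

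No whole peak around Sox2 held an OCT4::SOX2 match, while 2.23% of all peaks did. In the whole window, 4.99% of which was covered by peaks, there were 17 such matches, none inside a peak. When the central 500 bp of each peak were searched instead, which adds flank to narrow peaks, 2 of the 25 had a match (2.11% of the list). They were the +3.5 kb peak, by the match described above, and the +29.3 kb peak, by a match with 3 mismatches whose near end lay 10 bp outside the peak. With 1 mismatch more, 4 whole peaks held a match (13.6% of the list). These were the -7.9, +18.1, +107.5 and +145.4 kb peaks. At +18.1 kb the OCT element was exact and at +107.5 kb the SOX element, and in each case the other element held all 4 mismatches. These exact elements are also counted singly below.

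The OCT octamer was found in 1 peak, at +18.1 kb on the minus strand (3.07% of the list, and 1 peak or 2.92% for the central 500 bp). The SOX consensus was found in the TSS peak and the +107.5 kb peak (8.73% of the list). In the central 500 bp only the +107.5 kb peak kept it (8.50%). In that control region peak the SOX match was itself the SOX element of the OCT4::SOX2 match with 1 mismatch more, at chr3:34758076-34758090. All 4 mismatches lay in the OCT element, so the same letters were counted under both names. Both 2 of 25 and 1 of 25 are counts too small to set apart from these shares.

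KLF matches were the most frequent, in 7 of the 25 peaks, beside 24.3% of the list. They were the TSS peak and the -7.9, +55.3, +84.6, +94.9, +123.7 and +145.4 kb peaks. In the central 500 bp the count was 6 (22.5% of the list). The TSS peak held 5 of the 11 KLF matches. Such matches are common in peaks as wide as it, since 83.4% of the 1543 peaks within 20% of its width held at least 1. None lay in a peak of the control region, while 17.1% of all distal peaks held a KLF match. With only 4 peaks there, their absence cannot be set apart from that share.

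The single ESRRB match inside a peak was in the +107.5 kb peak of the control region (2.91% of the list had one, and 2.74% in the central 500 bp, where the +107.5 kb peak again held the only one). Among 19185 peaks of like width 4.49% held the consensus. Another 2 ESRRB matches lay in the control region but outside its peaks, one 56 bp before the edge of the +106.6 kb peak and one 275 bp before the edge of the +110.8 kb peak. All 3 were on the minus strand. The whole window held 25 ESRRB matches, or 8.33 per 100 kb, at which about 2 would fall in the 25 kb of the control region stretch. ESRRB is an orphan nuclear receptor of the pluripotency network.

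STAT3, which carries the LIF signal in ES cells, had its consensus in 1 peak, at +94.9 kb (2.31% of the list, and also 1 peak for the central 500 bp, where the list had 2.00%). It lay at -66.5 bp from the centre of that peak, next to the KLF match of the same peak. Among peaks of like width 3.88% held the STAT3 consensus. CTCF matches, held by 16.6% of the list, lay in the TSS peak (33.5% of peaks of like width held one) and in the +109.7 kb peak. Only the latter held one in its central 500 bp (15.6%), at -20.0 bp from the centre, and 5.16% of peaks of like width held one. Both CTCF matches were on the minus strand, each with 1 mismatch. Of the 23 CTCF matches in the window, 2 were inside peaks.

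The number of peaks around Sox2 was next placed among the same window around other genes, drawn along the direction of transcription. Of 14370 protein-coding genes with a peak at their TSS, 60.4% had fewer than the 25 peaks of Sox2 (95% Wilson interval 59.6 to 61.2%, counting error only), and the median was 21. Many of these windows hold other genes with promoters of their own. Among the 1237 genes that, like Sox2, had a TSS peak and no other protein-coding TSS in the window, 86.6% had fewer (84.6 to 88.4%), and the median was 11. In 8200 tiles of the same length over the autosomes the median was 11 peaks, and 84.5% held fewer than 25.

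The stretch 95 to 120 kb downstream, which held 4 peaks at Sox2, held at least 4 for 15.3% of the 14370 genes and for 6.71% of the 1237. That stretch was set by the known control region of Sox2 and is an arbitrary place at the other genes, so the comparison leans toward Sox2. The whole window was also drawn around Sox2 to include the control region. Within 10 kb of the TSS at least 4 peaks were found for 14.6% of the 14370 genes and 10.0% of the 1237. Windows around neighbouring genes overlap and share peaks, so these genes are not independent of each other.

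**Figure D5:**
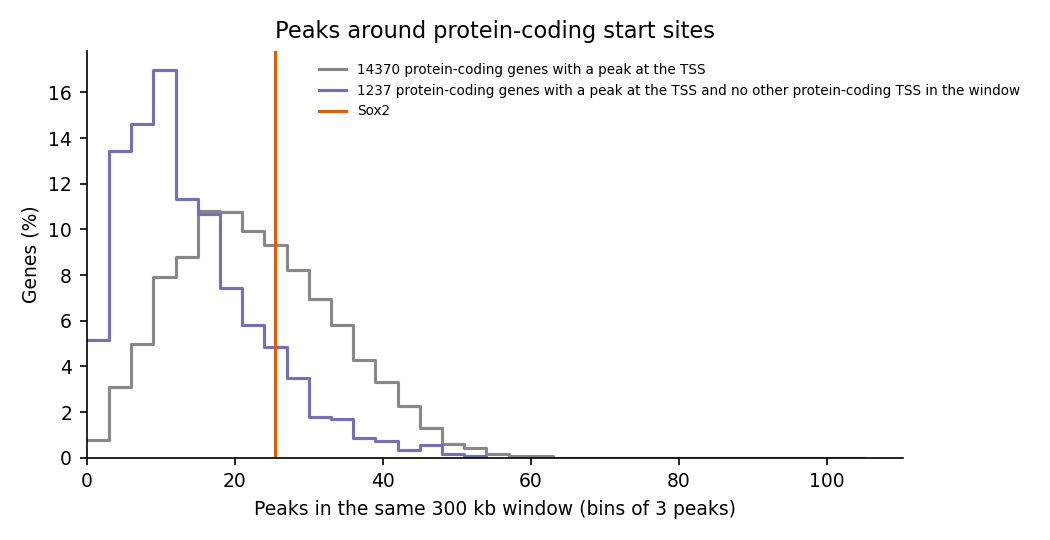
Share of protein-coding genes (%) against the number of peaks in the same window around their TSS, in bins of 3 peaks, for the 14370 genes with a peak at the TSS (grey) and the 1237 of them with no other protein-coding TSS in the window (purple). The vertical line marks Sox2 at 25 peaks, above the median of 21 for the first set and of 11 for the second.

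Set beside 3 other genes of the pluripotency network, Sox2 had fewer peaks than Pou5f1 (38) and Nanog (45) and more than Klf4 (17). The peaks covered 4.99% of the window at Sox2, 9.67% at Pou5f1, 11.0% at Nanog and 4.55% at Klf4. The windows differ in what else they hold, with 14 other protein-coding start sites at Pou5f1, 6 at Nanog, 1 at Klf4 and none at Sox2. In the stretch 95 to 120 kb downstream, set by the control region of Sox2, there were 4 peaks at Sox2 and 4 at Nanog, and none at Pou5f1 and Klf4. Whole peaks with an OCT4::SOX2 match numbered 3 at Pou5f1 and 2 at Nanog, against none at Sox2 and Klf4. With 2.23% of all peaks holding one, counts this small do not set the loci apart. The TSS peaks of Pou5f1 (2335 bp) and Klf4 (3392 bp) were as wide as that of Sox2 or wider. No width is given for Nanog, since no peak covered its annotated TSS, and it counted as having a TSS peak only because a peak centre lay within 1 kb.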

How the data were processed

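Each line of the deposited list is 1 merged peak, written as a chromosome and 2 positions in bp, and carries no count, signal or score. According to the methods, the authors aligned the ATAC-seq reads to GRCm38 with STAR 2.6.1c, removed duplicates with Picard, called peaks with MACS2 2.1.1.20160309 on paired-end fragments and merged those of all dox-treated OCT4-AID experiments with BEDTools. It was not stated whether calling used single libraries or pooled replicates. In the methods, regions over 5 kb, blacklisted regions and those overlapping peaks of input samples were taken out. The list held 11 regions over 5 kb, none around Sox2, and whether the other removals had been applied to it was not tested. A merged list keeps a region called in any of the peak sets that were merged, so deeper or more libraries can give more and wider peaks.

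Positions were converted to 1-based and compared with the GRCm38.p6 sequence and GENCODE M21 using Python 3.11.15, numpy 2.4.6, pandas 2.3.3 and pysam 0.24.0. A peak belonged to a stretch when its centre did, and was proximal within 1 kb of any annotated TSS. Repeats were the soft-masked bases of the genome sequence. Consensus counting was tested on simulated sequences with planted matches. The genes named are Sox2, those overlapping the window, and Pou5f1, Nanog and Klf4. The members, bounds and motif lists were chosen with earlier results of these data known. Samples were grouped by the labels, but no value belongs to a sample, so no test was made. The alternatives tried were other bounds, filters on width, joining of close peaks, other sets of genes, and other rules for a motif match.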

Additional observations from a re-analysis of the deposited data

How the results depend on the processing

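Of 34 alternatives over 12 values, 20 left the value the same and 14 did not. For the share of genes, the same meant within its 95% interval, and for the other values within 1.5 times the main value. The 25 peaks of the window fell to 24 and 23 when peaks with gaps of up to 200 or 1000 bp were joined, and the 4 peaks of the control region fell to 3 and 2. With bounds of 90 to 130 kb the control region held 6 peaks and 27.1% of the peak width, which put it above the 25.1% around the gene. The share of genes with fewer peaks than Sox2 was 89.7% for genes with no other protein-coding TSS in the window, with or without a TSS peak, and 63.3% when peaks under 200 bp were left out. In the central 500 bp the members with a match numbered 2 for OCT4::SOX2, 1 for SOX and 1 for CTCF. With 1 mismatch more they numbered 4 for OCT4::SOX2 (13.6% of the list), 10 for OCT (34.0%), 18 for SOX (71.9%), 21 for KLF (73.9%), 8 for ESRRB (21.02%), 8 for STAT3 (30.4%) and 12 for CTCF (49.6%). The RefSeq start site, an alternative chosen after seeing the data, gave 5 peaks in the control region and again 4 within 10 kb of the start. No paired analysis was possible because the list holds no value per sample. Depth is unknown, so absence from the list does not show that a region was closed.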
